A study of Mus musculus with 7 samples.

Results

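Wnt ligands and their Frizzled receptors were followed in mouse primary keratinocytes, the epithelial cells of the epidermis, after transfection with small interfering RNA (siRNA) against Trp63. The set was given as a list of 10 genes, 6 ligands (Wnt3, Wnt4, Wnt5a, Wnt6, Wnt7b and Wnt10a) and 4 receptors (Fzd1, Fzd2, Fzd6 and Fzd7). Every probe set that the platform annotation pairs with a listed gene and no other was taken, which gave 16 of the 22626 probe sets tested (8 of ligands and 8 of receptors). All 10 genes were measured, among 12393 genes in all. Cells received Trp63 siRNA on 5 arrays (replicates 1, 2, 3, 4 and 7) and a non-specific control siRNA on 2 arrays (replicates 5 and 6). All 7 arrays were of cells collected 48 h after transfection, and no strain, age or further treatment is given in the labels. Whether the replicates came from separate cultures is not stated in the labels. The p-values therefore reflect the spread between these samples alone, and that spread may be technical.

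Wnt proteins are secreted, lipid-modified ligands that bind Frizzled receptors at the cell surface. With an Lrp5 or Lrp6 co-receptor this stabilises beta-catenin, which works with TCF and LEF factors at target genes. Other Wnt and Frizzled pairs act through planar cell polarity, the system that orients cells and hairs within an epithelium. In skin, Wnt signals are known for starting hair follicles and maintaining basal cells. The p63 protein made from Trp63 is a transcription factor needed by stratified epithelia.

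The brightest Trp63 probe set read 503 ± 31.1 (SD, n = 5) with Trp63 siRNA and 1565 ± 167 (SD, n = 2) with control siRNA, on the deposited linear intensity scale (log2 difference -1.61, limma adjusted p = 1.00e-05). The other 2 Trp63 probe sets differed by -0.49 and -0.54 and were lower too (limma adjusted p = 0.00228 and 3.39e-04). Median intensity was 207 to 213 on the Trp63 siRNA arrays and 211 to 214 on the control arrays. The number of arrays limits the precision of every value. The basal keratins Krt5 and Krt14 were bright in both groups (Krt5 averaged 11602 with Trp63 siRNA and 14460.3 in controls). Melanocyte markers were bright too, with a summed level of 6997 to 12153 over 9 genes with Trp63 siRNA and 6839 to 10230.2 in controls. Silenced replicates 1 and 2 and control replicate 5 held the high values. Of those 9 markers none passed the test or had an unadjusted p below 0.05 (limma), and their median difference was 0.005. Bacterial spike controls were higher on silenced replicates 2, 3 and 7 (mean log2 level 8.97 to 9.05) than on the other 2 silenced arrays (8.75 and 8.78) and both controls (8.73 and 8.75).

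Promoter sequence from RefSeq (build GRCm38.p6) was at hand for 5 of the 10 genes (Wnt3, Wnt4, Wnt6, Fzd1 and Fzd7). Each window holds the 250 bases before and the 50 bases after a transcription start. The windows of Wnt4 and Fzd7 are shown because these were the called genes among the 5. Capitals mark the GC box GGGCGG on either strand (CCGCCC when read on the other), and neighbouring matches may overlap or touch. The Wnt4 window lies at chr4:137277385-137277684 on the plus strand and the Fzd7 window at chr1:59481897-59482196 on the plus strand.
Wnt4: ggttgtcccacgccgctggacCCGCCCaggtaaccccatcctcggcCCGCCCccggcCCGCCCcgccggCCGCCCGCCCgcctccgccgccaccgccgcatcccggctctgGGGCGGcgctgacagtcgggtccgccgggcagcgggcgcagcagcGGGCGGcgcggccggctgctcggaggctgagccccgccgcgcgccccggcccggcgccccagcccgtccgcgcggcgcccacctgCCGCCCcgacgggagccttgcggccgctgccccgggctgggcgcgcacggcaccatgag
Fzd7: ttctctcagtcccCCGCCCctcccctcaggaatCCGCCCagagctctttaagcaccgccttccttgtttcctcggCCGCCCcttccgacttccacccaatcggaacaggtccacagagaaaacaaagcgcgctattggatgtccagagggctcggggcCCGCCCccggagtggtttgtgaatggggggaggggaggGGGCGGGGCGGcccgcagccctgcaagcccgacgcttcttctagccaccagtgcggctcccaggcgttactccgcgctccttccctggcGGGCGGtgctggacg
The Wnt4 window was 84.3% G and C with 8 matches to the GC box, and the Fzd7 window 66.7% with 7 matches. The median over all 32851 promoter windows was 52.7%, and 35.7% of them held at least 1 GC box. Neither window held the core of a p63 element in the exact form searched for (a pair of CATG half-sites 6 bases apart, in 0.712% of all windows). Both also lacked the form CTTTGA of the TCF and LEF core (16%) and the TATA box TATAAA (13.6%) on either strand. Other forms of the p63 element and of the TCF and LEF core were not searched for. The Fzd7 window holds the form CTTTGT, shown as acaaag because it lies on the other strand.

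Of the 16 probe sets, 5 were higher and 3 were lower with Trp63 siRNA at an adjusted p below 0.05 (limma, adjusted over all 22626 probe sets). Over all probe sets 16% passed in either direction, 7.83% higher and 8.16% lower, beside 8 of the 16 member probe sets. The members were chosen with earlier results of these data known, so the contrast of these shares is no test of the set. Wnt7b and Fzd6 also enter the count of 8 by both of their probe sets. Each gene's brightest probe set gave 2 genes higher (Wnt7b and Fzd7), 2 lower (Wnt4 and Fzd6) and 6 that did not pass, beside 16.6% of all genes called (8.03% higher and 8.57% lower). The median log2 difference was 0.06 over the member probe sets and -0.03 over all. The groups did not overlap at 9 of the 16 probe sets, beside 36.6% of all probe sets. Only 2 member probe sets were higher when control replicate 6 was left out. Leaving out control replicate 5 or silenced replicate 4, or blocking on the spike split, gave 3.

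**Figure D1:**
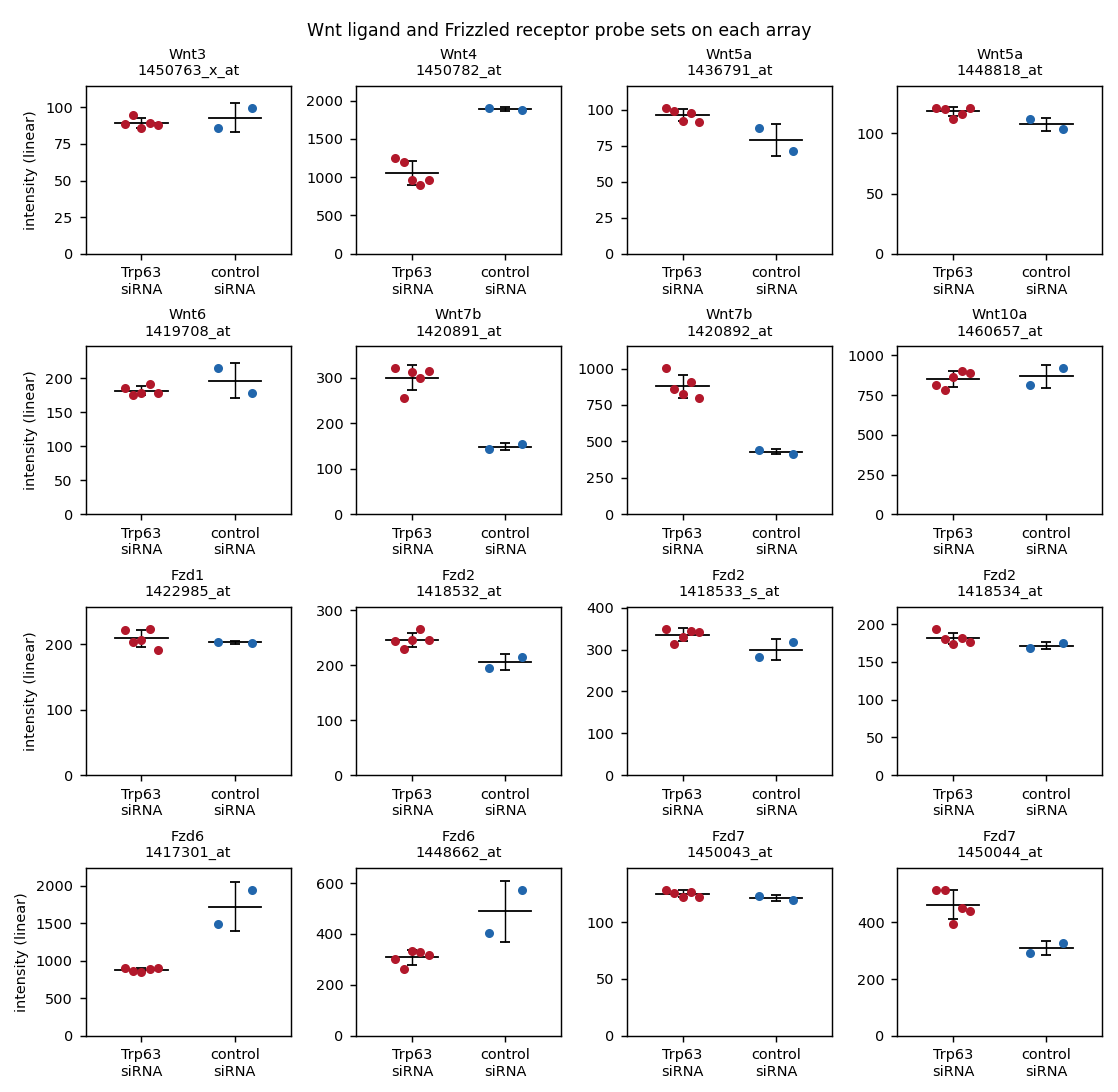
Linear intensity (vertical axes, from 0) of each of the 16 member probe sets on every array, with Trp63 siRNA in red (n = 5) and control siRNA in blue (n = 2). Horizontal bars are means and error bars SD; the Wnt7b, Wnt4 and Fzd6 groups are well apart, whereas those of Wnt3, Wnt10a and Fzd1 overlap.

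Among the ligands, Wnt7b was higher and Wnt4 was lower with Trp63 siRNA. Wnt7b, a ligand needed for lung growth in the mouse, read 1002, 862, 827, 908 and 800.4 in silenced replicates 1, 2, 3, 4 and 7 at its brighter probe set (1420892_at), and 440.1 and 416 in control replicates 5 and 6. Every silenced array lay above both controls, and the lowest silenced value was well clear of the higher control. The rise was 2.01-fold (log2 difference 1.01, SE 0.092, limma adjusted p = 1.61e-04), on the scale of log2(intensity + 16) that applies to all fold changes here. The dimmer probe set (1420891_at) read 321, 255, 312, 299 and 315 in the silenced arrays and 143 and 154 in the controls. This was a 1.92-fold rise (log2 difference 0.94, SE 0.089, limma adjusted p = 1.99e-04), so both Wnt7b probe sets gave nearly the same change. Silenced replicate 1 was the highest at both, while the lowest was replicate 7 at the brighter probe set and replicate 2 at the dimmer.

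Wnt4, a ligand best known from kidney and female reproductive tract development, has 1 probe set (1450782_at). It read 1245, 1198, 959.7, 898 and 960.9 in silenced replicates 1, 2, 3, 4 and 7, against 1908 and 1876 in control replicates 5 and 6. The groups were apart, and the silenced arrays fell into a higher pair (replicates 1 and 2) and a lower trio (replicates 3, 4 and 7). Wnt4 was 1.80-fold lower (limma adjusted p = 0.0024, log2 difference -0.85, SE 0.13). The higher pair were also the silenced arrays of high melanocyte marker level. Within the arrays of high melanocyte level Wnt4 differed by -0.64 (2 silenced arrays and 1 control), and within those of low level by -0.99 (3 silenced arrays and 1 control). With that split as a block the difference was -0.82 (limma adjusted p = 9.41e-05). The control of high melanocyte level read 1908 and the other 1876, with only 1 control at each level. In RNA from mixed cells, fewer cells of a type and less RNA per cell cannot be told apart.

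The other 4 ligands moved little. Wnt10a, a ligand of teeth, hair and other skin appendages, read 814, 784, 862, 899 and 888 in the silenced arrays and 817 and 919 in the controls. These values overlapped throughout (log2 difference -0.03, 95% interval -0.21 to 0.15, limma adjusted p = 0.837), so a change as large as that of Wnt7b or Wnt4 lay outside the interval. Wnt6, a ligand made by ectodermal epithelia, read 175 to 191 with Trp63 siRNA and 179 to 215 in controls (log2 difference -0.10, 95% interval -0.26 to 0.06, limma adjusted p = 0.376). Its brightness was below that of the median probe set. Wnt3, which is required for gastrulation in the mouse, was dimmer, at 85.6 to 94.6 with Trp63 siRNA and 85.9 to 99.8 in controls. Its only probe set is of the type whose probes may bind related transcripts, and at a level percentile of 9.25 among all probe sets it gives little ground for any statement on Wnt3 RNA.

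Wnt5a, a ligand of beta-catenin-independent signalling that drives limb outgrowth in the mouse, was dim at both of its probe sets. At 1436791_at it read 102, 99.5, 92.1, 97.6 and 91.6 in silenced replicates 1, 2, 3, 4 and 7, against 87.2 and 71.1 in control replicates 5 and 6. The groups were apart, and the gap between the controls was wider than the gap to the nearest silenced array. The difference passed the test (0.25, SE 0.063, limma adjusted p = 0.0283). Leaving out control replicate 6 ended the Wnt5a call (0.12, limma adjusted p = 0.24), as did leaving out silenced replicate 2 (0.0629) or 4 (0.0587), blocking on the spike split (0.0609) or fitting no variance trend (0.0516). The slightly brighter probe set 1448818_at read 112 to 121 with Trp63 siRNA and 104 to 112 in controls, and did not pass (log2 difference 0.12, 95% interval 0.02 to 0.22, limma adjusted p = 0.101).

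**Figure D2:**
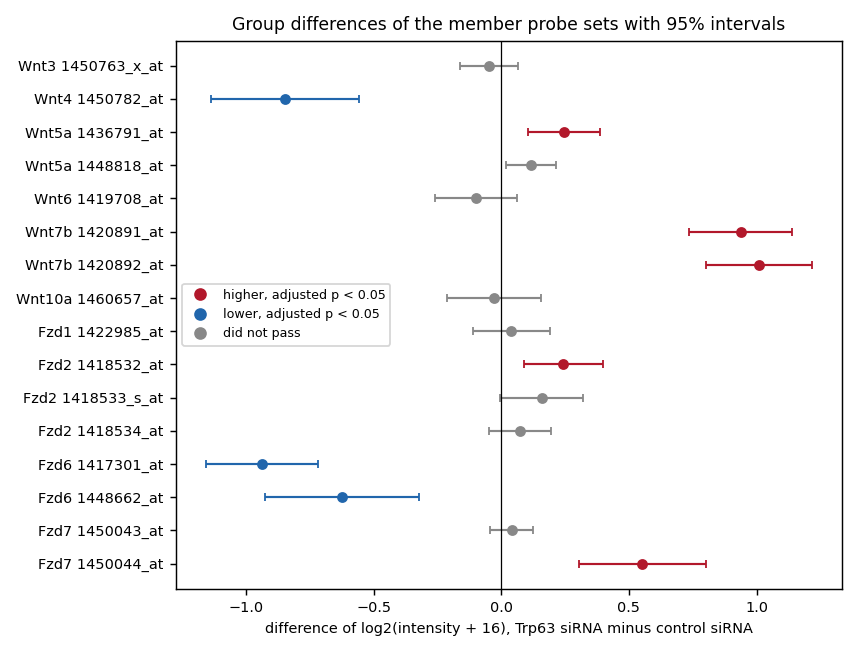
Difference of log2(intensity + 16), Trp63 siRNA minus control siRNA (horizontal axis), for each of the 16 member probe sets with its 95% interval from limma; red points are higher, blue points lower and grey points did not pass at an adjusted p of 0.05. Both Wnt7b probe sets lie near 1, Wnt4 and the brighter Fzd6 probe set lie near -0.85 and -0.94, and the dimmer Fzd7 probe set, at 0.04, lies close to 0.

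Among the receptors, Fzd6 was lower and Fzd7 was higher. Fzd6, a planar cell polarity receptor without which mouse hairs are misoriented, read 898, 865, 848, 887 and 909 in silenced replicates 1, 2, 3, 4 and 7 at its brighter probe set (1417301_at), and 1487 and 1949 in control replicates 5 and 6. The silenced arrays lay close together (SD 24.8), whereas the 2 controls were far apart (SD 327), and even the lower control was above every silenced array. The fall was 1.92-fold (log2 difference -0.94, SE 0.097, limma adjusted p = 3.17e-04). It was -1.13 without control replicate 5 and -0.74 without control replicate 6, and passed in both cases (limma adjusted p = 3.38e-04 and 0.00301). The dimmer probe set (1448662_at) read 303, 261, 334, 327 and 317 in the silenced arrays and 405 and 574 in the controls. Fzd6 fell here as well (limma adjusted p = 0.0134, log2 difference -0.62, SE 0.13). Leaving out control replicate 6 ended this call (-0.38, limma adjusted p = 0.134), and so did blocking on the spike split (-0.59, limma adjusted p = 0.0776).

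Fzd7, a receptor of beta-catenin signalling that mouse intestinal stem cells use, read 516, 515, 394, 452 and 439.6 in silenced replicates 1, 2, 3, 4 and 7 at its brighter probe set (1450044_at), and 293 and 327 in control replicates 5 and 6. All silenced arrays were above both controls, and replicates 1 and 2 were again the highest of them. Fzd7 rose 1.47-fold (limma adjusted p = 0.00934, log2 difference 0.55, SE 0.11). Either control decided the call: the limma adjusted p was 0.10 with replicate 5 left out (difference 0.48) and 0.0504 with replicate 6 left out (0.63). Within the arrays of high melanocyte level Fzd7 differed by 0.78 and within those of low level by 0.37, and with that split as a block the difference was 0.57 (limma adjusted p = 0.00234). The second Fzd7 probe set (1450043_at) was dim, at 122 to 129 with Trp63 siRNA and 120 to 123 in controls, and showed no such rise (log2 difference 0.04, 95% interval -0.05 to 0.13, limma adjusted p = 0.511). The 2 probe sets of Fzd7 thus disagree, and the rise rests on the brighter.

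Fzd1 and Fzd2 belong to the same receptor subfamily as Fzd7. Fzd2 has 3 probe sets, and each was higher on average with Trp63 siRNA. At 1418532_at Fzd2 read 243, 229.9, 245, 266 and 246 in the silenced arrays and 195 and 215 in the controls. The groups were apart and the difference passed (0.24, SE 0.068, limma adjusted p = 0.0408), but not when control replicate 5 (limma adjusted p = 0.295), control replicate 6 (0.0834) or any of silenced replicates 3, 4 and 7 (0.0782 to 0.0833) was left out, nor when blocked on the spike split (0.0624). The brightest Fzd2 probe set (1418533_s_at) read 313 to 349.8 with Trp63 siRNA and 283 to 318 in controls (log2 difference 0.16, 95% interval -0.01 to 0.32, limma adjusted p = 0.177). The remaining Fzd2 probe set (1418534_at) differed by 0.07 (limma adjusted p = 0.395). Fzd1 read 192 to 224 with Trp63 siRNA and 202 to 204 in controls. Its difference of 0.04 did not pass (95% interval -0.11 to 0.19, limma adjusted p = 0.731).

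The 4 genes called at their brightest probe set differed in how the silenced arrays spread. Melanocyte markers were high on silenced replicates 1 and 2, and on those arrays Wnt4 and Fzd7 were also higher than on the other silenced arrays. At other member probe sets, Wnt10a (814 and 784 beside 862 to 899) and Fzd2 1418532_at were lower on those arrays. Wnt5a 1436791_at was higher there (102 and 99.5 beside 91.6 to 97.6). With the melanocyte split as a block the Wnt5a difference was 0.26 (limma adjusted p = 0.00181). Wnt7b and the brighter Fzd6 probe set did not separate the same arrays. The dimmer Fzd6 probe set was lower on silenced replicates 1 and 2 (303 and 261) than on the other silenced arrays (317 to 334). It read 405 in the control of high melanocyte level and 574 in the other. With the melanocyte split as a block its difference was -0.65 (limma adjusted p = 4.65e-04). There was only 1 control at each melanocyte level. The control of high level read 1908 for Wnt4 and 293 for Fzd7, and that of low level 1876 and 327. Blocking on the spike split, which compares silenced replicates 1 and 4 with both controls, gave differences of 1.13 for Wnt7b, 0.62 for Fzd7, -0.83 for Wnt4 and -0.92 for Fzd6, each still called (limma adjusted p between 5.4e-04 and 0.0294). Summed endothelial markers were higher on silenced replicates 1 and 2 and control replicate 5 (696 to 737) than on the other arrays (643 to 675). Summed fibroblast markers were also higher on these arrays within each group, and summed keratinocyte markers among the silenced arrays only. Summed immune markers did not separate the silenced arrays. The melanocyte split thus marks a grouping of arrays that some other markers share. Any part of spike level or melanocyte content in the separate array values was not tested beyond these fits.

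**Figure D3:**
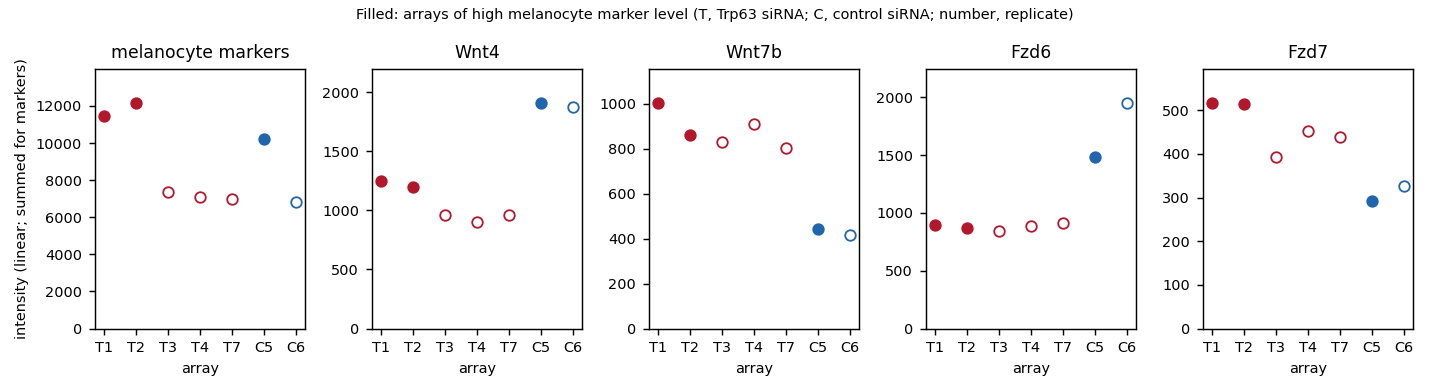
Linear intensity by array of the 4 genes called at their brightest probe set, beside the summed intensity of 9 melanocyte markers (left panel); T marks Trp63 siRNA and C control siRNA, with the replicate number. Filled circles are the arrays of high melanocyte level; Wnt4 and Fzd7 are higher on filled than on open silenced arrays, and Fzd6 is level across the silenced arrays at 848 to 909.

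The genes whose values followed each of the more changed members most closely over the 7 arrays were found by the root mean square difference between log2 values, each centred on its own mean. Nearest to Wnt7b were Tmprss2 (0.0621), a transmembrane serine protease gene, the simple-epithelium keratin gene Krt7 (0.0734) and Usp2 (0.0751). Nearest to Fzd6 were the basal integrin gene Itga6 (0.053), the zinc transporter gene Slc39a6 (0.0691) and the caveolin gene Cav1 (0.0753). Itga6 averaged 1515 with Trp63 siRNA and 2849 in controls. Nearest to Wnt4 were the aquaporin gene Aqp3 (0.0719), the ligand gene Bmp7 (0.0831) and Mgst2 (0.0949). This likeness is mainly that of the difference between groups, since all 7 arrays enter it.

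The remaining Wnt pathway was read from lists of 108 genes, of which 91 were measured, each by its brightest probe set. Of these 9 were higher, 8 were lower and 74 did not pass, or 18.7% called beside 16.6% of all genes, with a median difference of -0.03 beside -0.04 over all genes. The share called was thus near that of all genes, and changes stood in single genes. Among the 17 called genes, 5 passed whichever array was left out (Wnt7a, Wnt3a, Gpc6, Gpc4 and Tle5) and 12 lost the call without at least 1 array. Without control replicate 6 the counts were 3 higher and 2 lower, and without silenced replicate 7 they were 5 and 3. The lower count was 13, 5 and 4 without silenced replicates 1, 2 and 4.

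**Figure D4:**
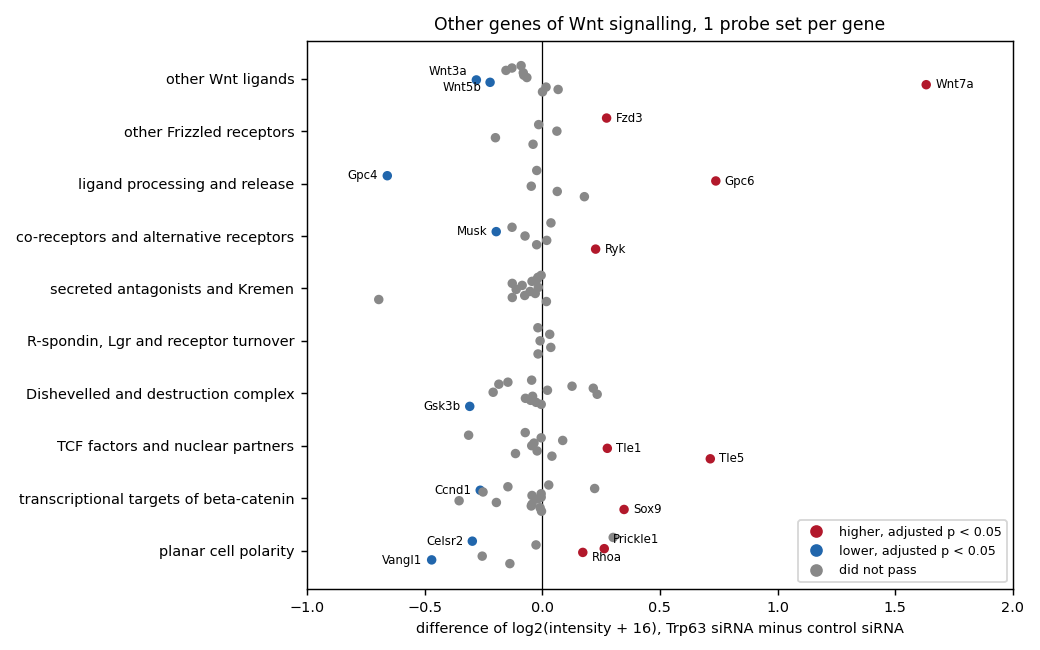
Difference of log2(intensity + 16), Trp63 siRNA minus control siRNA (horizontal axis), of the 91 measured genes of Wnt signalling that are not members, by list (vertical axis); a gene on more than 1 list is drawn on each. Red points are higher and blue points lower at an adjusted p of 0.05 and are named; Wnt7a lies farthest from 0, at 1.63.

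Of 12 other Wnt ligands, 1 rose and 2 fell, beside 16.6% of all genes called. Wnt7a, the closest relative of Wnt7b, read 933, 841, 942, 958 and 944 in silenced replicates 1, 2, 3, 4 and 7, against 289 and 284 in control replicates 5 and 6. Every silenced array was far above both controls, and the controls were nearly equal. Wnt7a rose 3.10-fold (limma adjusted p = 3.55e-06, log2 difference 1.63, SE 0.073), a larger difference than that of any member gene. Whether the probe sets of Wnt7a and Wnt7b share signal was not tested. Wnt3a was lower (145 ± 3.3 with Trp63 siRNA and 179 ± 3.2 in controls, log2 difference -0.28, limma adjusted p = 0.00269). Wnt5b was lower too (108 ± 7.5 with Trp63 siRNA and 129 ± 6.3 in controls, log2 difference -0.22, limma adjusted p = 0.0347). Both were below the median level of all probe sets. The Wnt5b call ended in 6 of the 7 fits that left out 1 array, and its dimmer probe set had the opposite sign. Of 5 other Frizzled genes measured, Fzd3, another planar cell polarity receptor, was higher (195 ± 6.7 with Trp63 siRNA and 159 ± 2.5 in controls, log2 difference 0.27, limma adjusted p = 0.00694) and 4 did not pass. The Fzd3 call ended without control replicate 6 (limma adjusted p = 0.0755).

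Genes for ligand release and for surface partners gave 4 calls in 13 measured genes, beside 16.6% of all genes called. The glypicans, surface proteoglycans that bind Wnt proteins, moved in opposite directions. Gpc6 rose 1.67-fold (236 ± 15.0 with Trp63 siRNA and 135 ± 6.1 in controls, log2 difference 0.74, limma adjusted p = 1.81e-04) and Gpc4 was 1.58-fold lower (445 ± 36.2 with Trp63 siRNA and 712 ± 74.5 in controls, log2 difference -0.66, limma adjusted p = 0.00194). The Wnt receptor gene Ryk was higher by 0.23 (limma adjusted p = 0.0499) and the receptor tyrosine kinase gene Musk lower (-0.20, limma adjusted p = 0.0354), and each lost its call without either control. Musk was dim (134 ± 6.8 with Trp63 siRNA and 156 ± 4.6 in controls), at a level percentile of 33.5 among all probe sets. Of 14 secreted antagonists and Kremen genes none passed at its brightest probe set, and 1 had an unadjusted p below 0.05 (limma). That was Sostdc1, an antagonist of Wnt and BMP signals, which read 364 to 523 with Trp63 siRNA and 556 and 979 in controls (log2 difference -0.69, SE 0.21, limma adjusted p = 0.0503). At a dimmer probe set 3 genes of this list were lower, Sostdc1 (limma adjusted p = 0.00294), Sfrp1 (4.69e-04 and 0.00642 at a pair of probe sets) and Sost (0.0075). The other member of this list named by smallest p, Dkkl1, differed by -0.13 (limma adjusted p = 0.224). None of 5 genes of the R-spondin and Lgr list passed or had an unadjusted p below 0.05, and those of smallest p, Rspo1 and Lgr6, differed by 0.04 and 0.03 (limma adjusted p = 0.428 and 0.791).

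Inside the cell, beta-catenin itself (Ctnnb1) averaged 5835 ± 121 with Trp63 siRNA and 5745 ± 18.7 in controls (log2 difference 0.02, 95% interval -0.05 to 0.09, limma adjusted p = 0.678). Of 14 genes of Dishevelled and the destruction complex, Gsk3b, the kinase that marks beta-catenin for breakdown, was lower (log2 difference -0.31, limma adjusted p = 0.0463) and the others did not pass. Among 11 TCF factors and nuclear partners, the Groucho relative Tle5 rose 1.64-fold (992 ± 55.6 with Trp63 siRNA and 598 ± 26.1 in controls, limma adjusted p = 3.48e-04) and the co-repressor gene Tle1 rose by 0.28 (0.0409). Gsk3b and Tle1 lost their calls without either control. Of 16 transcriptional targets of beta-catenin measured, Sox9 was higher by 0.35 (limma adjusted p = 0.0193) and the cyclin D1 gene Ccnd1 lower (-0.26, limma adjusted p = 0.0173), and neither passed without control replicate 6. The feedback target Axin2 averaged 207 with Trp63 siRNA and 231 in controls and did not pass (log2 difference -0.15, 95% interval -0.31 to 0.02, limma adjusted p = 0.217). Lef1 was dim and differed by -0.005 (limma adjusted p = 0.963). Myc, another target on the list, averaged 1161 with Trp63 siRNA and 1494 in controls, and the groups did not overlap. Its difference of -0.35 was larger than that of Ccnd1 but did not pass (limma adjusted p = 0.0506). The median difference over the 16 targets was -0.03. Ctnnb1, Axin2, Lef1 and Myc were named for their roles after their values were seen.

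Of 8 planar cell polarity genes measured, 2 rose and 2 fell, beside 16.6% of all genes called. The core genes Vangl1 (log2 difference -0.47, limma adjusted p = 0.0233) and Celsr2 (-0.30, 0.0232) were lower, like the Frizzled member Fzd6, whereas the core gene Prickle1 (0.26, 0.0124) and the small GTPase gene Rhoa (0.17, 0.032) were higher. With control replicate 6 left out, the 4 adjusted p-values from limma were 0.0703 to 0.194, and no call was left among them.

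Markers of keratinocytes and of other cells were read on the same arrays. For the counts below, which are of genes by brightest probe set, 16.6% of all genes were called. The groups did not overlap at 4748 of all 12393 genes and at 36.6% of all probe sets. Of 12 keratinocyte markers 11 fell and 1 rose. Trp63 and the 14-3-3 gene Sfn had the smallest p. Trp63 is the siRNA target, so its fall is no separate reading of keratinocytes. The summed level of the 12, Trp63 included, was 49938 to 53884 with Trp63 siRNA and 68094 to 69832 in controls. Of 14 fibroblast markers 2 rose and 1 fell. Col5a2 was higher (321 ± 39.4 with Trp63 siRNA and 178 ± 2.2 in controls) and Fbln1 lower (191 ± 9.9 with Trp63 siRNA and 268 ± 13.3 in controls), and the summed level was 2433 to 2775 with Trp63 siRNA and 2185 to 2485 in controls. Of 10 immune markers 1 rose and 1 fell, and the groups did not overlap at 3. The macrophage marker Cd68 was higher (278 ± 39.3 with Trp63 siRNA and 179 ± 40.5 in controls, log2 difference 0.60, limma adjusted p = 0.024) and Tyrobp, an adaptor of immune cell receptors, was lower (130.5 ± 5.0 with Trp63 siRNA and 152 ± 0.49 in controls, limma adjusted p = 0.0178). The summed immune level was 1656 to 1864 with Trp63 siRNA and 1705 to 1800 in controls. None of 6 endothelial markers passed and 1 had an unadjusted p below 0.05 (limma), with a summed level of 643 to 713 with Trp63 siRNA and 675 to 737 in controls. Dct, the brightest melanocyte marker, averaged 3136 with Trp63 siRNA and 3101 in controls. The part of these cells in the Wnt and Frizzled values was not tested beyond the fit with the melanocyte split.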

How the data were processed

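Total RNA had been made into biotinylated RNA and hybridised to Affymetrix arrays, 1 per sample, per the labels. The authors deposited 1 linear intensity per probe set and array. Probe summarisation, background correction and normalisation were not given in the sources used here. No detection calls were used, so dim values have no test of presence. Of 22690 probe sets 64 controls were left out. The platform annotation gave 20380 probe sets 1 symbol, 691 several and 1555 none. Symbols were updated by Entrez ID for 20351.

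Values became log2(intensity + 16), which understates changes of dim genes. Groups (5 Trp63 siRNA, 2 control siRNA) were compared on all 7 arrays with limma 3.58.1 in R 4.3.3 (lmFit, eBayes with a trend), adjusted by Benjamini-Hochberg over 22626 probe sets at 0.05. The procedure was tested on simulated data. The members and gene lists were chosen with earlier results of these data known. Named were all member probe sets, up to 4 called genes of smallest p per pathway list (otherwise the 2 of smallest p), and from marker lists some of the 2 of smallest p and the 2 brightest. Likeness was computed for called members past 1.5-fold. Alternatives covered normalisation, the pseudocount (1 or 64), a brightness filter (25th or 50th percentile), variance models, array weights, splits by spike and melanocyte level, and dropping 1 array at a time. A lone remaining control is assumed to vary like the other group. The splits lie at the largest gap in mean level. Figures used matplotlib 3.10.9.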

Additional observations from a re-analysis of the deposited data

How the results depend on the processing

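Wnt7b (both probe sets), Wnt4 and the brighter Fzd6 probe set kept direction and call in all 18 alternatives, with log2 differences of 0.77 to 1.13 for Wnt7b, -0.95 to -0.80 for Wnt4 and -1.13 to -0.74 for Fzd6. The brighter Fzd7 probe set lost its call in 2 of 18 (0.48 to 0.63), the dimmer Fzd6 probe set in 2 of 18, Fzd2 1418532_at in 6 of 18 and Wnt5a 1436791_at in 5 of 16. Wnt5a 1448818_at gained a call with quantile normalisation (limma adjusted p = 0.0392) and on blocking by melanocyte split (0.048). With the spike split as a block 3 member probe sets were higher, 5 pathway genes higher and 2 lower, and 1135 probe sets higher and 785 lower. Under the melanocyte block 14 pathway genes and 2895 probe sets were lower, and with array weights 13 and 2823. Leaving out each array gave 2 to 5 member probe sets higher and 2 to 3 lower, 3 to 10 pathway genes higher and 2 to 13 lower, and 776 to 2326 probe sets higher and 598 to 3176 lower, the lowest each time without control replicate 6 and the highest without silenced replicate 1 (the member counts also without others). The causes were not tested. Brightness limits Wnt3 and Wnt5a. No paired analysis was possible because the groups share no replicate number.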

Other observations

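Of the 91 pathway genes, 35 had more than 1 probe set. The 9 of these genes called at the brightest had 12 dimmer probe sets. Of those 12, 5 were called in the same direction (limma), 0 were called in the opposite direction and 7 were not called, namely all 3 of Fzd3 and those of Gpc6, Tle1, Celsr2 and Wnt5b. The difference had the opposite sign at 2 of the 7, that of Wnt5b and 1 of Fzd3. In 4 other genes a dimmer probe set was called where the brightest was not. These were named after their values were seen. Sostdc1 was lower at its dimmer probe set (256 ± 19.5 with Trp63 siRNA, n = 5, and 419 ± 73.2 in controls, n = 2, SD, limma adjusted p = 0.00294), with a log2 difference of -0.67 beside -0.69 at the brighter. Sfrp1, a secreted Wnt antagonist, was lower at a pair of its 4 probe sets (135 ± 5.3 with Trp63 siRNA and 192 ± 8.8 in controls, log2 difference -0.46, limma adjusted p = 4.69e-04, and -0.26, limma adjusted p = 0.00642), whereas its other 2 probe sets differed by -0.11 and -0.10 and did not pass. Sost, a bone-derived Wnt antagonist, was lower at its dimmer probe set (136 ± 6.7 with Trp63 siRNA and 167 ± 0.047 in controls, log2 difference -0.27, limma adjusted p = 0.0075). Ccn4, a matrix protein gene and beta-catenin target, was higher at its dimmer probe set (185 ± 5.8 with Trp63 siRNA and 144 ± 23.9 in controls, log2 difference 0.34, limma adjusted p = 0.0174).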
